A study of Mus musculus with 15 samples.

Results

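Serial passage of wild-type cells was followed in primary lung fibroblasts of C57BL/6 mice with intact Atm, by setting 3 libraries of Atm+/+ cells at passage 8 against 3 libraries of unirradiated Atm+/+ cells at passage 2. These 6 of the 15 libraries of the study were chosen by the genotype, treatment and passage in their labels. Both groups were untreated and grew in DMEM with 15% fetal bovine serum at 3% oxygen, close to the oxygen tension of tissue. The other 9 libraries were Atm+/+ cells labelled passage 2 and harvested 10 days after 10 Gy of X-rays, Atm-/- cells at passage 8 and Atm-/- cells at passage 2, with 3 libraries in each group. The study describes 3 fibroblast strains per genotype, so the spread between replicates holds differences between strains as well as technical ones. Total RNA was sequenced and reads were counted per gene. Levels are given in CPM, the reads of a gene scaled to a common library total after TMM normalisation, with replicates in the order 1, 2, 3. Differences are log2 fold changes of passage 8 over passage 2 with their standard error (SE), and a gene was called when its p in edgeR, adjusted over all genes tested by Benjamini and Hochberg, was under 0.05.

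Fibroblasts that leave the lung for culture dishes divide on a stiff surface, where they tend to take on the contractile, matrix-making state of myofibroblasts. That state is driven largely by TGF-beta, by the serum response factor that binds CArG boxes, and by the mechanosensitive co-activators YAP and TAZ, which act through TEAD factors. With repeated division many cells slow or leave the cycle. Early cultures from tissue can also hold macrophages, endothelial cells and other cells beside the fibroblasts.

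The libraries held 36486842, 30336228 and 37149602 counts at passage 8 and 33021865, 34219160 and 23605046 at passage 2. Of these 6 libraries passage 2 replicate 3 stood apart. At an equal depth of 13645592 counts it held reads for 17226 genes, whereas the passage 8 libraries held 20380, 20101 and 20505 and the other two passage 2 libraries 20367 and 21085. Correlations of log2 CPM between replicates were 0.987 to 0.990 at passage 8 and 0.903 to 0.975 at passage 2. For many lists whose counts moved, the count is therefore also given without that library or without others of the 6 compared libraries. Outside the compared groups, Atm-/- passage 8 replicate 3 was poorer still. It had the fewest counts of all 15 libraries, 13645592, and reads for 15037 genes. It was part of the shared fit and of the Atm-/- passage effect. Atm itself was low in every library, at 1.52, 1.42 and 2.00 CPM at passage 8 and 1.12, 0.877 and 3.10 CPM at passage 2. In the 3 Atm-/- libraries of passage 8 it was 0.873, 1.09 and 2.37 CPM, and the labels do not say which part of the gene is deleted, so these counts do not check the genotype.

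Of 18167 genes tested, 1780 (9.80%) were higher at passage 8 and 2447 (13.5%) were lower, 4227 in all (23.3%). Without passage 2 replicate 3, 1475 of 18544 genes (7.95%) were higher and 1832 (9.88%) lower, and 2954 of the 4227 genes were called again, all in the same direction. On the authors' TPM scale, analysed as log2(TPM + 1) with limma, 1777 of 17295 genes were higher (10.3%) and 1580 lower (9.14%), so that 52.9% of the calls were higher where edgeR gave 42.1%, with a median log2 fold change of all genes of 0.19 on that scale and 0.00 after TMM. The falls were the larger changes. Of the called genes, 575 were at least 16-fold lower and 52 at least 16-fold higher. In 8626 genes (47.5%) the 3 values of one passage lay all above the 3 of the other, so that a lack of overlap alone was common.

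**Figure D1:**
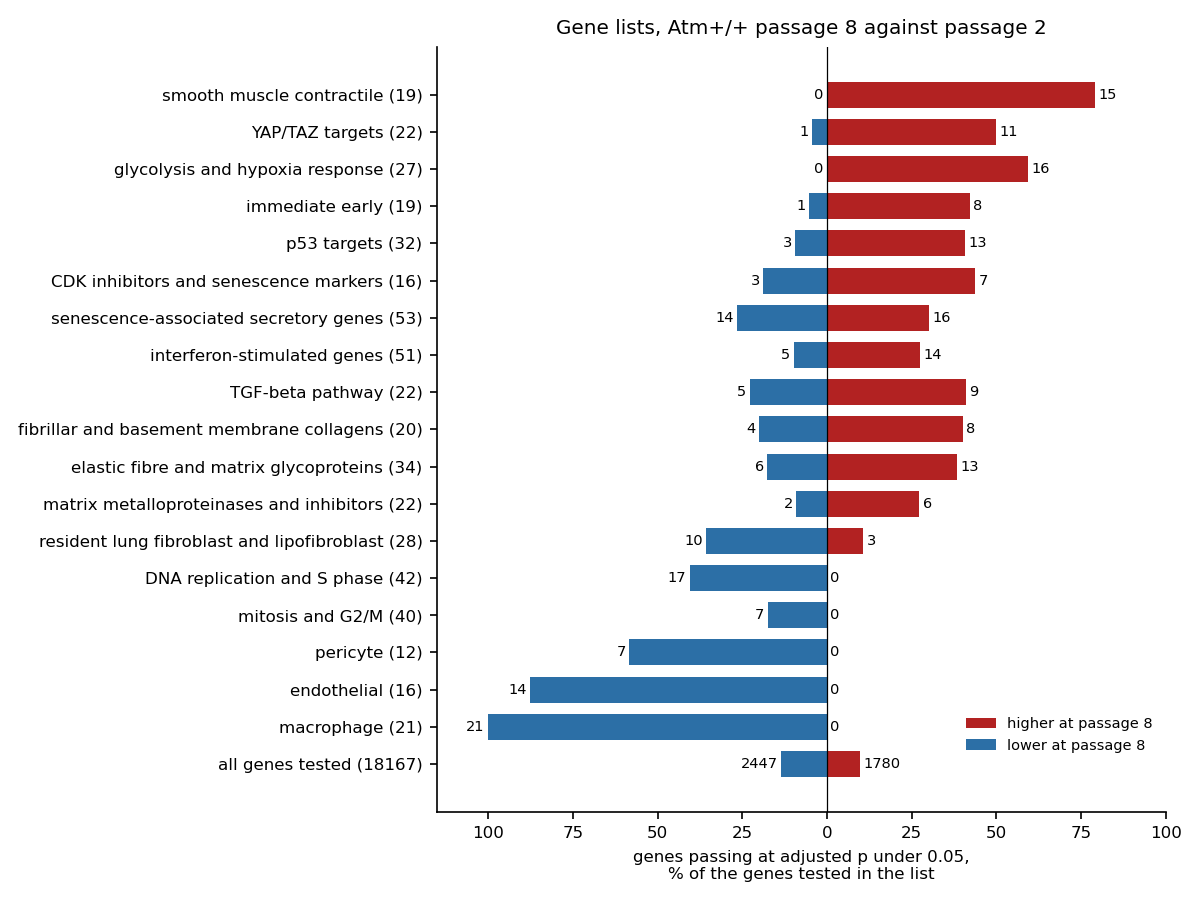
Share of the tested genes of each list that were higher (red, to the right) or lower (blue, to the left) at passage 8 than at passage 2 in Atm+/+ cells, in percent, with the number of genes at the end of each bar and the number tested in brackets. The smooth muscle, YAP/TAZ and glycolysis and hypoxia lists point to the right, with 15 of 19, 11 of 22 and 16 of 27 genes higher, and the endothelial and macrophage lists to the left, with 14 of 16 and 21 of 21 genes lower.

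The cells of both passages carried the defining transcripts of fibroblasts. In the authors' TPM, which allow for gene length, the collagen chain genes Col1a1 and Col1a2 had 2749 ± 578 and 3101 ± 414 TPM at passage 8 and 1833 ± 581 and 1802 ± 435 TPM at passage 2 (SD, n = 3). Thy1, a surface glycoprotein of mesenchymal cells, had 868, 882 and 860.3 TPM at passage 8 and 917, 972 and 794 TPM at passage 2. Pdgfra, the platelet-derived growth factor receptor alpha by which lung fibroblasts are commonly sorted, had 368, 392 and 427 CPM at passage 8 and 396, 503 and 382 CPM at passage 2, ranges that overlapped (log2 fold change -0.11, SE 0.21, edgeR adjusted p = 0.736). Dcn, which encodes the collagen-binding proteoglycan decorin, had 1257, 1076 and 1391 CPM at passage 8 and 509.9, 759 and 209.6 CPM at passage 2 (log2 fold change 1.33, SE 0.43, edgeR adjusted p = 0.0388), a call that was lost in 10 of the 15 alternative fits, among them that without passage 2 replicate 3 (adjusted p = 0.0988 in edgeR). Lum, which encodes lumican, had 37.3, 32.9 and 30.7 CPM at passage 8 and 12.4, 14.6 and 1.84 CPM at passage 2 and rose by 1.80 (SE 0.48, edgeR adjusted p = 0.0173), a call lost with the 2 compared groups alone and without passage 8 replicate 1.

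Transcripts of cells other than fibroblasts were among the deepest falls. Every one of the 21 macrophage genes was lower at passage 8, with a median log2 fold change of -6.13, where the median of all genes tested was 0.00. Lyz2, the lysozyme of myeloid cells, fell to 26.4, 53.4 and 33.4 CPM at passage 8, against 1778, 1491 and 1999 CPM at passage 2 (log2 fold change -5.54, SE 0.38, edgeR adjusted p = 9.32e-07). Pf4, a chemokine of platelets and resident macrophages, had 0.631, 1.26 and 0.686 CPM at passage 8 and 336, 191 and 606 CPM at passage 2 (log2 fold change -8.79, SE 0.63). The 3 chains of complement C1q, a product of tissue macrophages, all fell, with log2 fold changes of -8.12 (SE 0.66) for C1qb, -7.98 (SE 0.71) for C1qa and -7.49 (SE 0.54) for C1qc. Marco, a scavenger receptor of alveolar macrophages, had 0.717, 2.68 and 1.24 CPM at passage 8 and 66.2, 92.3 and 104 CPM at passage 2. Mmp9, the gelatinase of leukocytes and other migrating cells, fell by 8.46 in log2 units (SE 0.43, edgeR adjusted p = 1.72e-07), and Arg1, an arginase of alternatively activated macrophages, fell by 6.99 (SE 0.61). In each of these genes the 3 passage 8 libraries lay below all passage 2 libraries. For Pf4, the C1q chains, Mmp9 and Arg1 the rule for the largest changes required this. Ptprc, the pan-leukocyte marker CD45, was low, with 4 reads in all at passage 8 and 145 at passage 2, none of them in passage 2 replicate 3.

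Endothelial transcripts behaved alike, with 14 of 16 genes lower and a median of -6.23. Pecam1, the junction protein CD31, had 0.832, 1.19 and 0.604 CPM at passage 8 and 135, 212 and 96.8 CPM at passage 2 (log2 fold change -7.41, SE 0.60, edgeR adjusted p = 2.93e-06). Tie1, an endothelial receptor kinase, showed the largest fall by the rule for named genes, to 0.172, 0.204 and 0.165 CPM at passage 8, against 82.4, 119 and 56.8 CPM at passage 2 (-8.88, SE 0.79, edgeR adjusted p = 5.24e-06). Further genes with large falls are known from endothelium or blood cells. Cldn5, the claudin of endothelial tight junctions, fell by 8.10 (SE 1.10), Dll4, a Notch ligand of arterial and sprouting endothelium, fell by 7.44 (SE 0.79), and Cd93 fell by 7.43 (SE 0.66). Pdgfb, the growth factor by which endothelium recruits pericytes, fell by 7.22 (SE 0.72), Hcls1, a cytoskeletal adaptor of blood cells, fell by 7.18 (SE 0.48), and Stab1, a scavenger receptor of sinusoidal endothelium and macrophages, fell by 6.92 (SE 0.61). The 2 genes of the list that were not called were Flt1, with 38.4, 33.0 and 32.4 CPM at passage 8 and 48.3, 66.3 and 44.5 CPM at passage 2, and Eng, with 143, 134 and 161 CPM at passage 8 and 159.7, 153 and 188 CPM at passage 2. Both encode receptors that are not confined to endothelium.

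Of 12 pericyte genes 7 were lower and none was higher, with 4 lower when passage 8 replicate 1 or 3 was left out. Rgs5, a G protein regulator of pericytes, fell to 0.258, 0.136 and 0.0549 CPM at passage 8, against 22.5, 36.0 and 8.37 CPM at passage 2 (log2 fold change -7.19, SE 0.73, edgeR adjusted p = 1.50e-05). Higd1b had no read at passage 8 and 64 reads at passage 2, at least 29.7-fold lower with 3 reads over the group as the limit. Kcnj8, a potassium channel of mural cells, fell by 2.81 (SE 0.33), and Cspg4, the NG2 proteoglycan, fell by 2.22 (SE 0.42). Pdgfrb, which fibroblasts also express, did not pass, at 713, 613 and 731 CPM at passage 8 and 711, 762 and 539 CPM at passage 2 (0.03, SE 0.15, edgeR adjusted p = 0.897). Epithelial transcripts were scarce at both passages. The surfactant gene Sftpc had 2 reads at passage 8 and 181 at passage 2, the club cell gene Scgb1a1 none at passage 8 and 53 at passage 2, and the cadherin gene Cdh1 2 at passage 8 and 138 at passage 2. Of 18 epithelial genes 10 were tested and 7 were lower, but 5 were lower and 1 higher without passage 2 replicate 3, 4 were lower without passage 8 replicate 1 and 3 without passage 8 replicate 3. Of 8 mesothelial genes tested 4 were higher (3 without passage 2 replicate 3, and 2 without passage 8 replicate 1 or 2 or passage 2 replicate 1 or 2), at low levels. Msln, the surface antigen mesothelin, had 2.07, 1.12 and 2.33 CPM at passage 8 and 0.372, 0.0822 and 0.726 CPM at passage 2 (2.31, SE 0.76, edgeR adjusted p = 0.0416), and that call was lost in 7 of the alternative fits. Krt19 had 8.15, 9.19 and 6.95 CPM at passage 8 and 2.58, 3.23 and 1.98 CPM at passage 2. The T cell gene Cd3e had no read in any of the 6 libraries, and of 2 lymphocyte genes tested 1 was lower (2 when any compared library but passage 2 replicate 3 was left out, and 1 gene was higher without passage 2 replicate 2).

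Summed over the list, macrophage genes amounted to 70.3, 109.5 and 74.7 CPM at passage 8 and 3223, 2502 and 4323 CPM at passage 2, and endothelial genes to 197, 182 and 206 CPM at passage 8 and 1153, 1575 and 946 CPM at passage 2. In the irradiated cells macrophage genes stood at 2291, 1524 and 2738 CPM. Bulk RNA cannot tell fewer cells of a type from less RNA per cell. These sums moved with passage, and their part in the other results was not tested.

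**Figure D2:**
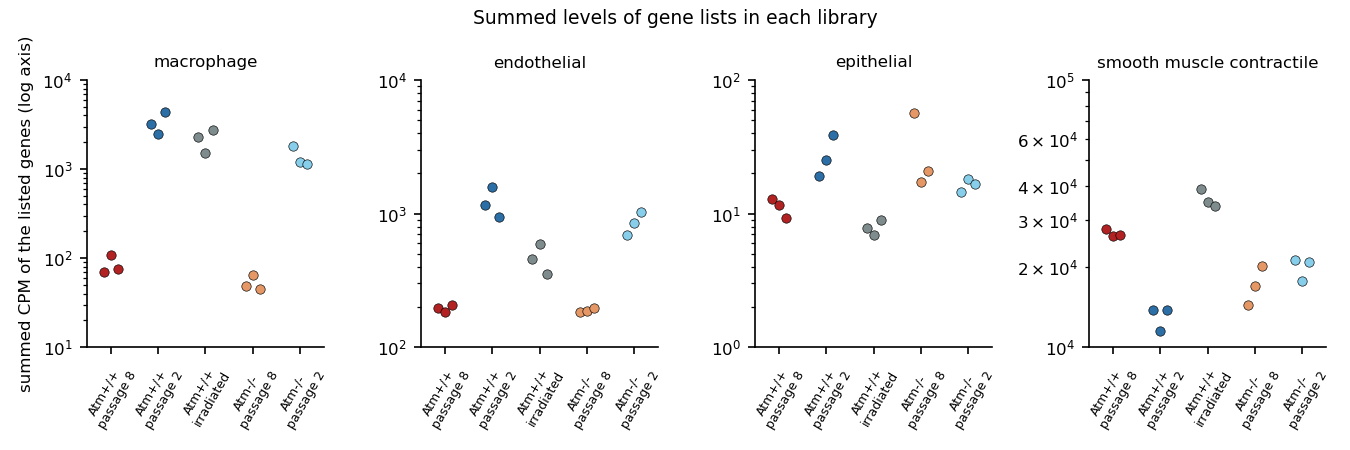
Summed normalised CPM of the macrophage, endothelial, epithelial and smooth muscle contractile lists in each library, on log axes with a range of their own, where each point is 1 of 3 libraries of a group. Macrophage sums lie at 70.3 to 109.5 CPM in Atm+/+ passage 8 and 2502 to 4323 CPM in Atm+/+ passage 2, and contractile sums at 25964 to 27669.7 CPM in Atm+/+ passage 8 and 11453 to 13771 CPM in Atm+/+ passage 2.

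The contractile programme of smooth muscle and myofibroblasts was higher at passage 8. Of 19 genes tested 15 were higher and none lower, with and without passage 2 replicate 3, and their median log2 fold change was 1.29. Acta2, the smooth muscle alpha-actin that defines myofibroblasts, had 7939.9, 7799 and 7682 CPM at passage 8 and 3732, 2836 and 3763 CPM at passage 2 (log2 fold change 1.18, SE 0.16, edgeR adjusted p = 1.17e-04). Myh11, the myosin heavy chain of differentiated smooth muscle, had 642, 527 and 684 CPM at passage 8 and 94.3, 111 and 67.9 CPM at passage 2 (2.76, SE 0.24, edgeR adjusted p = 4.09e-06). Lmod1, which nucleates actin filaments in smooth muscle, had 254, 208 and 259 CPM at passage 8 and 50.6, 40.1 and 35.0 CPM at passage 2 (2.52, SE 0.20, edgeR adjusted p = 2.93e-06). In these 3 genes the lowest passage 8 library exceeded the highest passage 2 library. Tagln, an actin cross-linker, rose by 1.29 (SE 0.16), Cnn1, the actin-binding calponin, by 1.96 (SE 0.27), and Nexn, an actin-binding protein of the Z disc, by 1.70 (SE 0.15). Des, the intermediate filament protein desmin, had 337, 272 and 252 CPM at passage 8 and 150.1, 116 and 173 CPM at passage 2, which did not overlap, yet it did not pass (0.97, SE 0.40, edgeR adjusted p = 0.0981). Mural cells of vessels also make contractile proteins. Of their markers, Rgs5 was at 0.258 CPM or less and Cspg4 at 2.73 CPM or less in the passage 8 libraries. Pdgfrb, which fibroblasts also express, reached 731 CPM there. The summed pericyte list held 835 to 1009.9 CPM at passage 8 and 872 to 1485 CPM at passage 2, which overlapped. The part of mural cells in the contractile increase was not tested.

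Target genes of YAP and TAZ were higher as well. Of 22 genes 11 were higher and 1 lower (10 and 1 without passage 2 replicate 3, and 9 to 13 higher with 1 library left out), with a median of 0.94. Ankrd1, a stretch-responsive repeat protein and a standard readout of YAP, had 498, 425 and 679 CPM at passage 8 and 43.3, 46.2 and 52.0 CPM at passage 2 (log2 fold change 3.50, SE 0.20, edgeR adjusted p = 2.73e-07). Ccn2, connective tissue growth factor, had 2657, 2595 and 2875 CPM at passage 8 and 331, 362 and 278 CPM at passage 2 (3.06, SE 0.18, edgeR adjusted p = 2.73e-07), and 23.2% of its exonic bases are shared with another annotated gene. Neither gene showed any overlap between the passages, which for Ankrd1 was a condition of the rule for the largest changes. F3, the tissue factor that starts clotting, had 1651, 1358 and 1820.1 CPM at passage 8 and 133, 187 and 40.1 CPM at passage 2 (3.74, SE 0.51, edgeR adjusted p = 1.72e-04). Crim1, a transmembrane binder of bone morphogenetic proteins, rose by 1.40 (SE 0.12), Asap1 by 1.24 (SE 0.13), and Ccn1, the matricellular relative of Ccn2, by 1.21 (SE 0.18). The member that fell was Igfbp3, a carrier of insulin-like growth factors, with 99.0, 132 and 91.2 CPM at passage 8 and 1147, 1706 and 952 CPM at passage 2 (-3.56, SE 0.53, edgeR adjusted p = 3.15e-04).

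The promoters of 6 genes that rose are shown here because they hold the boxes of the factors named above, and they were picked for holding them. Vcl, which encodes vinculin and links integrins to actin, had 59.3, 35.8 and 111 CPM at passage 8 and 2.58, 11.2 and 5.13 CPM at passage 2 (log2 fold change 3.44, SE 0.63, edgeR adjusted p = 0.00170). Its counts are uncertain, since 25.5% of its exonic bases overlap another gene. Asb2, a ubiquitin ligase subunit that targets filamins, had 24.2, 18.5 and 24.6 CPM at passage 8 and 1.89, 1.31 and 1.89 CPM at passage 2 (3.73, SE 0.56, edgeR adjusted p = 3.45e-04). Ston1, an endocytic adaptor, rose by 3.17 (SE 0.55), and Myl9, the regulatory light chain of smooth muscle myosin, by 1.04 (SE 0.18). The RefSeq promoter windows of GRCm38.p6, from 250 bases before to 50 after the gene's start, are printed 5′ to 3′ on the strand of the gene, with CArG boxes and GGAATG, the core of the TEAD site, in capitals.
Vcl, chr14:20929148-20929447, plus strand, 1 CArG box and 1 GGAATG: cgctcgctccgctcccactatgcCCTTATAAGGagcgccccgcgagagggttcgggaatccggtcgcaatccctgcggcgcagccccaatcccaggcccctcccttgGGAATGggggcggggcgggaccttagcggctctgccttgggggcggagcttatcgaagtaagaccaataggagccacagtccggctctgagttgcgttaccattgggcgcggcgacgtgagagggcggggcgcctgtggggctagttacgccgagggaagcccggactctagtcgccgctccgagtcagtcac
Asb2, chr12:103355952-103356251, minus strand, 1 CArG box: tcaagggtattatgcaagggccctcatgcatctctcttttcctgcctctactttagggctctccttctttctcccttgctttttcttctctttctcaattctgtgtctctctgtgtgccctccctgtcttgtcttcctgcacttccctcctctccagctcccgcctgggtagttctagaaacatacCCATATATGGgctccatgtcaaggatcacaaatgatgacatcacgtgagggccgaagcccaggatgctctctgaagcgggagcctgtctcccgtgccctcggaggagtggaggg
Ston1, chr17:88626305-88626604, plus strand, 1 CArG box and 1 GGAATG: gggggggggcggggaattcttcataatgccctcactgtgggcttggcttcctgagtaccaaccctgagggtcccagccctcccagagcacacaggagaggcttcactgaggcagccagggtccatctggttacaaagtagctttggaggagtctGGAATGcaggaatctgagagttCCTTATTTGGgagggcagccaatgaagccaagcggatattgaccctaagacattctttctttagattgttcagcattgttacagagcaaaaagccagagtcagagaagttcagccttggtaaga
Myl9, chr2:156775214-156775513, plus strand, 1 CArG box: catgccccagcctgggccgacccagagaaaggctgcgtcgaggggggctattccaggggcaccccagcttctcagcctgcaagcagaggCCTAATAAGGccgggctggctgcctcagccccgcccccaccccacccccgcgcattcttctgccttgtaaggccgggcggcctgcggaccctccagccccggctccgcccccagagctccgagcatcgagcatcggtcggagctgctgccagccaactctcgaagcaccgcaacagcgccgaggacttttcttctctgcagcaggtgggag
Ankrd1, chr19:36119795-36120094, minus strand, 2 GGAATG: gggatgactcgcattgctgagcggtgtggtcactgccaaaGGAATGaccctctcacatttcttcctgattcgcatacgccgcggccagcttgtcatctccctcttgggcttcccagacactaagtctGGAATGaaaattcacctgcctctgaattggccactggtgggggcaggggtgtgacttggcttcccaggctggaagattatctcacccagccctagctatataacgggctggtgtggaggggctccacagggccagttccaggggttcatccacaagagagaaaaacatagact
Crim1, chr17:78199998-78200297, plus strand, 1 GGAATG: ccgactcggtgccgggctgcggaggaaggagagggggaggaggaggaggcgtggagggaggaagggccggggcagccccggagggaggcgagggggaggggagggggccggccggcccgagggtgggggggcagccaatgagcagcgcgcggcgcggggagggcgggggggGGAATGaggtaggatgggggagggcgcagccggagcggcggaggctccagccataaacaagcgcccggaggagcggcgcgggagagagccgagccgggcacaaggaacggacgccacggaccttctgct

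These windows were searched on both strands, and the boxes above share no base. A CArG box was found in 45 of 1217 genes that rose and have a promoter entry (3.70%), in 22 of 1773 that fell (1.24%), and in 187 of all 11663 tested genes with an entry (1.60%). In the contractile list 15 genes had an entry and 2 of them, Ldb3 and Myl9, held a CArG box. GGAATG was found in 8 of 16 YAP/TAZ targets with an entry, and in 1717 of the 11663 tested genes (14.7%). Among all genes that rose it was in 208 of 1217 (17.1%), and among those that fell in 282 of 1773 (15.9%). A match is a description of the letters and not of binding.

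**Figure D3:**
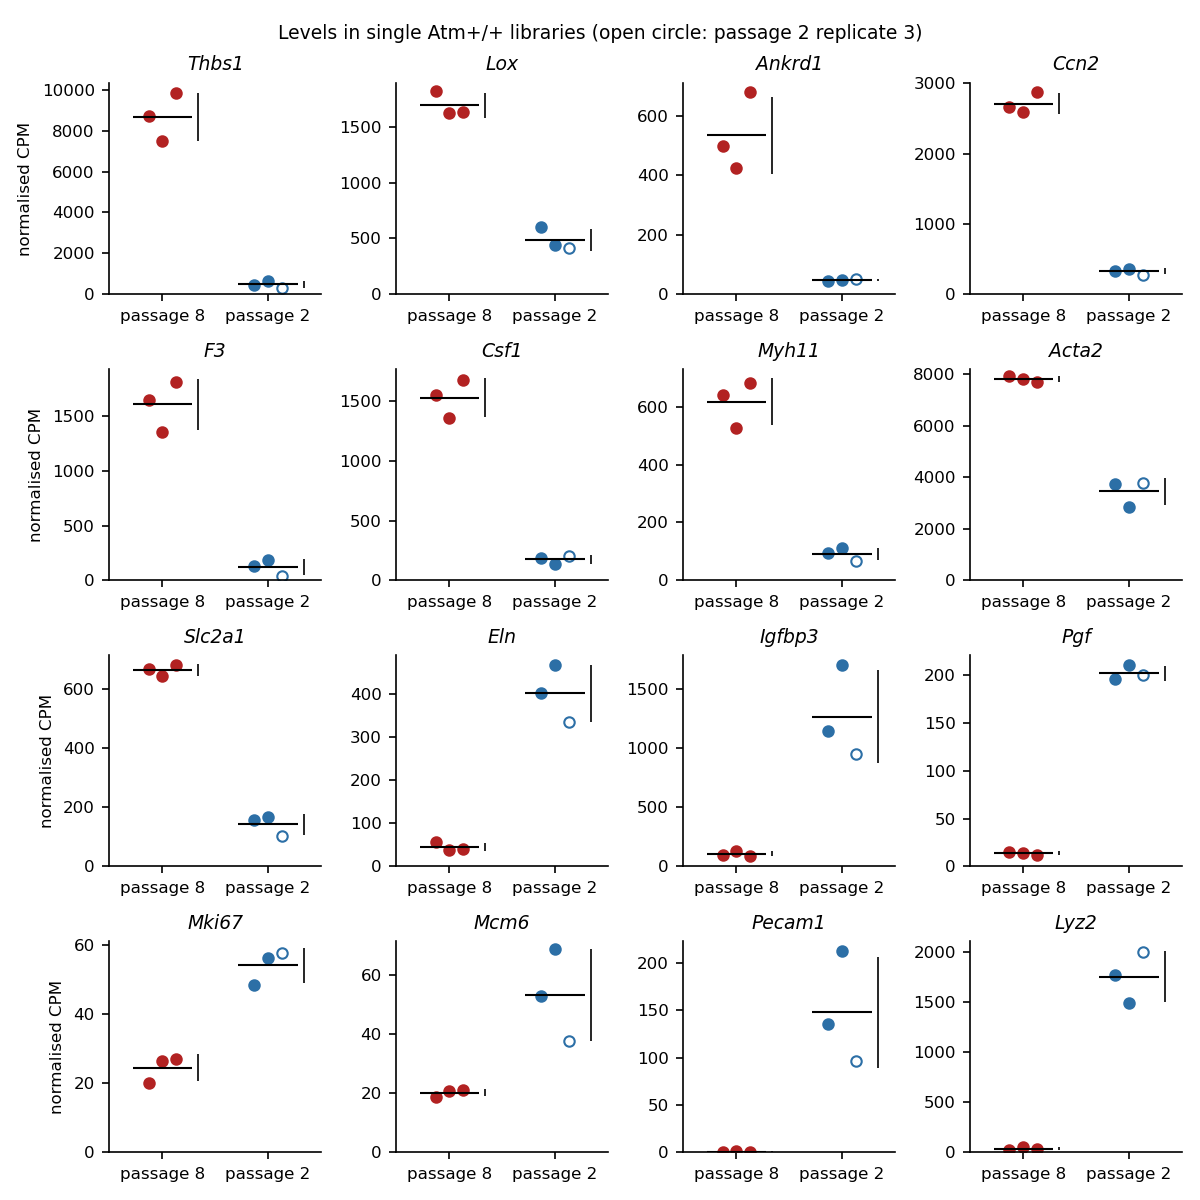
Normalised CPM of 16 genes in each Atm+/+ library, passage 8 in red and passage 2 in blue, with the open circle for passage 2 replicate 3, horizontal lines for means and vertical lines for 1 SD (n = 3). In all 16 genes the 3 libraries of one passage lie apart from the 3 of the other, and Eln, Igfbp3, Pgf, Mki67, Mcm6, Pecam1 and Lyz2 are lower at passage 8. For Thbs1, Ankrd1, F3 and Pecam1 the rule for the largest changes required this lack of overlap.

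Matrix genes changed in both directions. Thbs1, a matricellular protein that activates latent TGF-beta, had the second largest increase by the rule for named genes, with 8702, 7516 and 9855 CPM at passage 8 and 460.0, 653 and 301 CPM at passage 2 (log2 fold change 4.20, SE 0.32, edgeR adjusted p = 2.19e-06). The gene lies on chromosome 2 from 118111876 to 118127133 (mm10). In the list of elastic fibres and matrix glycoproteins 13 of 34 genes were higher and 6 lower (11 and 5 without passage 2 replicate 3, and 3 lower without passage 8 replicate 1), with a median of 0.21. Lox, the oxidase that cross-links collagen and elastin, had 1823, 1626 and 1636 CPM at passage 8 and 602, 443 and 416 CPM at passage 2 (1.80, SE 0.15, edgeR adjusted p = 3.40e-06), and Fbln2, a fibulin, rose by 1.37 (SE 0.15). The elastin gene Eln fell, with 55.7, 37.6 and 40.7 CPM at passage 8 and 403, 468 and 335 CPM at passage 2 (-3.17, SE 0.42, edgeR adjusted p = 1.27e-04). Ltbp4, the latent TGF-beta binding protein that guides elastic fibre assembly, had 33.8, 26.1 and 25.9 CPM at passage 8 and 161, 151 and 165 CPM at passage 2 (-2.47, SE 0.21, edgeR adjusted p = 3.40e-06). Fbln5, which tethers elastin to cells, rose, with 245, 229 and 255 CPM at passage 8 and 59.8, 54.1 and 25.1 CPM at passage 2 (2.39, SE 0.31).

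Of 20 collagen genes 8 were higher and 4 lower (6 and 4 without passage 2 replicate 3, and 5 higher without passage 8 replicate 1 or 3), with a median of 0.21. Of the chains of types I and III, Col1a2 alone passed. Col1a1 had 11370.0, 7658 and 10199 CPM at passage 8 and 7836, 7945 and 6323 CPM at passage 2, which overlapped (log2 fold change 0.40, SE 0.21, edgeR adjusted p = 0.177), and Col3a1 had 8647, 8269 and 9672 CPM at passage 8 and 11569.6, 14952 and 6396 CPM at passage 2 (-0.31, SE 0.40, edgeR adjusted p = 0.595). Col1a2 rose by 0.58 (SE 0.17, edgeR adjusted p = 0.0221), a call lost with the 2 compared groups alone and without passage 8 replicate 1 or 3 (adjusted p up to 0.0880 in edgeR). Larger changes were found in less abundant collagens. Col28a1, a von Willebrand domain collagen outside the list, had 64.5, 82.6 and 85.0 CPM at passage 8 and 7.42, 7.73 and 3.14 CPM at passage 2 (3.65, SE 0.43, edgeR adjusted p = 5.07e-05). Col4a5, a basement membrane chain, rose by 2.79 (SE 0.25), with 60.4, 44.7 and 72.5 CPM at passage 8 and 8.72, 10.2 and 6.63 CPM at passage 2. Col15a1, the multiplexin of vessel and adventitial basement membranes, fell to 0.832, 1.02 and 2.00 CPM at passage 8, against 169, 165 and 136 CPM at passage 2 (-6.92, SE 0.53, edgeR adjusted p = 2.27e-06). Its relative Col18a1, the source of endostatin, fell by 2.58 (SE 0.29), and Col5a3 fell by 2.44 (SE 0.22). Endothelial cells make Col15a1 and Col18a1 too, and the endothelial sum fell in the same libraries. The part of endothelial RNA in these falls was not tested.

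Among proteases and their inhibitors 6 of 22 genes were higher and 2 lower (6 and 2 without passage 2 replicate 3). Without passage 2 replicate 2 they were 8 and 4, in a fit where 3383 of all 18651 genes were higher and 3177 lower. Without passage 2 replicate 1 they were 4 and 2. Mmp10, stromelysin 2, had 131, 123 and 181 CPM at passage 8 and 20.8, 36.6 and 13.9 CPM at passage 2 (log2 fold change 2.60, SE 0.37). The 2 that fell, Mmp9 and Mmp12, are matrix metalloproteinases of macrophages, and Mmp12 had 0.746, 2.24 and 2.06 CPM at passage 8 and 77.3, 97.1 and 58.3 CPM at passage 2. In the TGF-beta list 9 of 22 genes were higher and 5 lower (7 and 5 without passage 2 replicate 3). The ligand gene Tgfb1 had 55.9, 42.5 and 52.0 CPM at passage 8 and 79.5, 82.4 and 77.1 CPM at passage 2 (-0.67, SE 0.14, edgeR adjusted p = 0.00379), a fall that was lost on both TPM scales (limma adjusted p up to 0.199). Inhba, the activin A subunit, rose by 1.75 (SE 0.34) and Ltbp2 by 0.88 (SE 0.16). Tgfbi, a secreted TGF-beta-induced protein, fell by 2.17 (SE 0.38). Without passage 8 replicate 3 the lower genes numbered 3.

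Genes of glycolysis and of the response to low oxygen rose without exception among those called. Of 27 genes 16 were higher and none lower (15 and 0 without passage 2 replicate 3), and the median was 0.63. Slc2a1, the glucose transporter GLUT1, had 668, 642 and 682 CPM at passage 8 and 158, 167 and 101 CPM at passage 2 (log2 fold change 2.23, SE 0.21, edgeR adjusted p = 7.31e-06). Hk2, the hexokinase that starts glycolysis in proliferating and hypoxic cells, had 149, 151 and 167 CPM at passage 8 and 39.2, 46.3 and 33.0 CPM at passage 2 (1.98, SE 0.15, edgeR adjusted p = 1.83e-06). Car9, a carbonic anhydrase and a sensitive target of hypoxia-inducible factors, was low at both passages, with 13.9, 11.5 and 12.7 CPM at passage 8 and 2.48, 2.41 and 1.16 CPM at passage 2 (2.64, SE 0.29). P4ha2, a prolyl hydroxylase of collagen, rose by 1.06 (SE 0.13). Vegfa had 645, 559.6 and 758 CPM at passage 8 and 193, 281 and 134 CPM at passage 2 (1.69, SE 0.26, edgeR adjusted p = 4.59e-04). Both groups were labelled with the same oxygen level, and the cause of these increases was not tested. Aldoa, an abundant glycolytic aldolase, did not pass, with 2177, 2190.1 and 2007 CPM at passage 8 and 2191, 1712 and 2146 CPM at passage 2, which overlapped (edgeR adjusted p = 0.766).

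**Figure D4:**
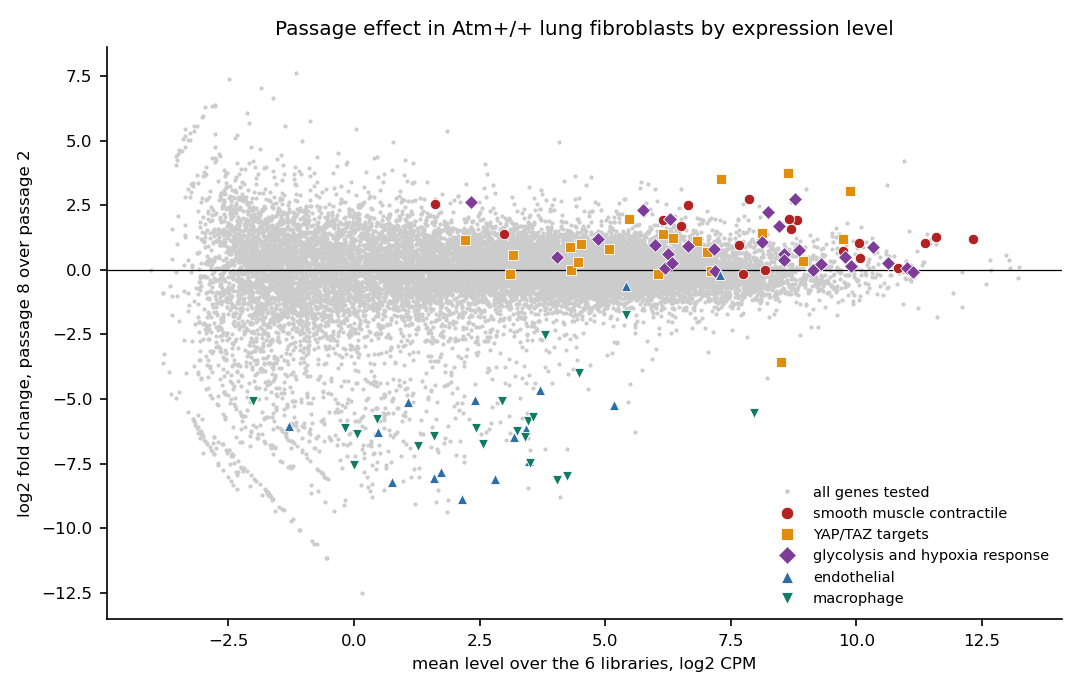
Log2 fold change of Atm+/+ passage 8 over passage 2 against the mean level over the 6 libraries in log2 CPM, with all 18167 genes tested in grey and 5 gene lists in colour. Endothelial and macrophage genes form a group well below 0, with medians of -6.23 and -6.13, and smooth muscle genes lie mostly above 0 at high levels, with a median of 1.29.

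Of 42 genes of DNA replication 17 (40.5%) were lower at passage 8 and none higher (13 and 0 without passage 2 replicate 3), with a median of -0.53. Of 40 mitotic genes 7 (17.5%) were lower and none higher (8 and 0 without passage 2 replicate 3), with a median of -0.37, a share of lower genes near the 13.5% of all genes tested. Mki67, the proliferation antigen, had 20.1, 26.5 and 27.0 CPM at passage 8 and 48.3, 56.2 and 57.6 CPM at passage 2 (log2 fold change -1.14, SE 0.18, edgeR adjusted p = 4.62e-04). Mcm6, a subunit of the replicative helicase, had 18.7, 20.8 and 21.0 CPM at passage 8 and 52.9, 68.7 and 37.7 CPM at passage 2 (-1.40, SE 0.20, edgeR adjusted p = 2.90e-04). Lig1, the replicative DNA ligase, fell by 1.23 (SE 0.17), Rpa2, a single-strand binding protein, fell by 1.04 (SE 0.15), Birc5, or survivin, fell by 1.10 (SE 0.22), and Cdc20, the activator of the anaphase-promoting complex, fell by 0.99 (SE 0.18). Every passage 8 library still held at least 13.1 CPM of Birc5. With 1 of the 6 libraries left out, 7 to 13 replication genes were lower, the fewest without passage 8 replicate 3, and 4 to 8 mitotic genes, the fewest without passage 8 replicate 1 or 2. Without passage 2 replicate 2, 1 replication gene and 3 mitotic genes were higher, in a fit where 3383 of all 18651 genes were higher. On the log2(TPM + 1) scale 6 replication and 4 mitotic genes were lower, where 9.14% of all genes were, and in the fit of 13 libraries, which leaves out passage 2 replicate 3 and Atm-/- passage 8 replicate 3, the counts were 28 and 20 lower with 1 higher in each list, where 19.8% of all genes were higher and 20.3% lower. The CHR element TTTGAA, through which a repressor complex silences mitotic genes outside division, was in 25 of the 33 mitotic promoters with an entry (75.8%) and in 14.6% of those of all tested genes. Among all genes that fell it was in 266 of 1773 (15.0%), and among those that rose in 159 of 1217 (13.1%), both near the share of all tested genes.

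Among p53 targets 13 of 32 genes were higher and 3 lower (11 and 2 without passage 2 replicate 3, and 8 higher without passage 2 replicate 1), with a median of 0.63. Plk2, a polo-like kinase induced by damage, had 446, 426 and 488 CPM at passage 8 and 103, 134 and 84.5 CPM at passage 2 (log2 fold change 2.08, SE 0.19, edgeR adjusted p = 7.31e-06). Ccng1, cyclin G1, rose by 1.18 (SE 0.22) and Sesn2, a stress-inducible inhibitor of mTORC1, by 1.03 (SE 0.19). Ptp4a3, a phosphatase, fell to 61.3, 56.2 and 56.9 CPM at passage 8, against 268, 275 and 284 CPM at passage 2 (-2.24, SE 0.19, edgeR adjusted p = 4.10e-06). In the list of CDK inhibitors and senescence markers 7 of 16 were higher and 3 lower, and 7 and 1 without passage 2 replicate 3. With 1 library left out 3 to 7 were higher, with 3 without passage 2 replicate 1 and 4 without passage 8 replicate 1 or 3, and no gene was lower in 4 of those 6 fits. Cdkn2a, whose locus encodes the p16 and p19 inhibitors that the gene counts do not separate, had 53.1, 37.4 and 52.3 CPM at passage 8 and 15.4, 9.42 and 29.5 CPM at passage 2 (1.40, SE 0.41, edgeR adjusted p = 0.0259). Its neighbour Cdkn2b, encoding p15, rose by 0.70 (SE 0.20, edgeR adjusted p = 0.0217). Both calls were lost in 4 of the 15 alternative fits, which were those of the 2 compared groups alone and without passage 8 replicate 1, passage 8 replicate 3 or passage 2 replicate 1. Each increase was smaller than 3-fold, and the passages did not overlap in either gene. Lmnb1, the lamin whose loss accompanies senescence, did not pass, at 9.84, 10.3 and 12.5 CPM at passage 8 and 14.1, 24.4 and 8.32 CPM at passage 2 (-0.52, SE 0.76, edgeR adjusted p = 0.637).

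Secreted factors associated with senescence were divided almost evenly, with 16 of 53 genes higher and 14 lower (17 and 13 without passage 2 replicate 3) and a median of 0.02. Csf1, the growth factor of macrophages, had 1555, 1361 and 1679 CPM at passage 8 and 183, 134 and 205 CPM at passage 2 (log2 fold change 3.14, SE 0.22, edgeR adjusted p = 1.40e-06). In the same passage 8 libraries the macrophage sum was 109.5 CPM or less, and a relation of that sum to Csf1 was not tested. Ereg, an epidermal growth factor receptor ligand, had 196, 196 and 230.0 CPM at passage 8 and 14.8, 38.9 and 7.21 CPM at passage 2 (3.34, SE 0.46), and Ptgs2, the inducible cyclooxygenase outside the list, rose by 3.40 (SE 0.29). Cxcl12, the stromal chemokine, had 2067, 1914 and 1993 CPM at passage 8 and 753, 725 and 413 CPM at passage 2 (1.66, SE 0.28, edgeR adjusted p = 8.56e-04). The interleukin gene Il6, the usual emblem of the secretory state, did not pass, at 184, 220.3 and 239 CPM at passage 8 and 153, 335 and 72.3 CPM at passage 2 (0.20, SE 0.50, edgeR adjusted p = 0.796), and neither did the chemokine gene Ccl2 (-0.15, SE 0.43, edgeR adjusted p = 0.820). Il1b had no read at passage 8 and 137 reads at passage 2. Pgf, placental growth factor, fell to 15.4, 14.4 and 12.1 CPM at passage 8, against 196, 211 and 199.8 CPM at passage 2 (-3.86, SE 0.39, edgeR adjusted p = 1.39e-05). Binding proteins of insulin-like growth factors moved apart. Igfbp5 had 163, 242 and 190.3 CPM at passage 8 and 1155, 1368 and 869.6 CPM at passage 2 (-2.51, SE 0.25), while Igfbp2 had 171, 120.2 and 105 CPM at passage 8 and 27.7, 27.5 and 32.7 CPM at passage 2 (2.17, SE 0.34).

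Interferon-stimulated genes were more often higher, 14 of 51, than lower, 5 of 51, but the counts fell to 10 and 3 without passage 2 replicate 3 and to 3 and 3 without passage 8 replicate 3, while 5 were higher without passage 8 replicate 1 and 8 without passage 2 replicate 1. Of all genes, 907 were higher and 1279 lower of 18652 without passage 8 replicate 3. Those higher numbered 1118 of 18669 without passage 8 replicate 1 and 1146 of 18632 without passage 2 replicate 1. Isg15, a ubiquitin-like antiviral modifier, had 105, 67.2 and 103 CPM at passage 8 and 45.3, 40.1 and 35.5 CPM at passage 2 (log2 fold change 1.19, SE 0.22, edgeR adjusted p = 0.00193). Irgm1, an interferon-inducible GTPase, rose by 2.59 (SE 0.39). Psmb8, an immunoproteasome subunit, fell by 1.39 (SE 0.21). Immunoproteasome genes are also high in macrophages. Gvin1, a very large interferon-inducible GTPase outside the list, had 91.3, 83.6 and 97.2 CPM at passage 8 and 7.14, 8.16 and 7.40 CPM at passage 2 (3.58, SE 0.18, edgeR adjusted p = 1.72e-07). It belongs to a family of near-identical copies, so its counts may include reads of a relative. The interferon-stimulated response element, searched on both strands, was in 20 of the 40 listed promoters with an entry and in 3.88% of those of all tested genes. It was in 62 of 1217 genes that rose (5.09%) and in 70 of 1773 that fell (3.95%).

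Genes that set resident lung fibroblasts apart were more often lower than higher. Of 28 tested genes 10 were lower and 3 higher (10 and 2 without passage 2 replicate 3), with 5 lower without passage 8 replicate 1 or 3, 6 without passage 8 replicate 2 or passage 2 replicate 1, and 1 higher without passage 8 replicate 1 or 3 or passage 2 replicate 1, and with a median of -0.86. Wnt2, a Wnt ligand of lung mesenchyme, fell to 0.287, 0.746 and 1.24 CPM at passage 8, against 16.3, 18.6 and 16.3 CPM at passage 2 (log2 fold change -4.49, SE 0.63, edgeR adjusted p = 2.11e-04). Fgfr4, a fibroblast growth factor receptor of the alveolar niche, had 6 reads in all at passage 8 and 470 at passage 2. Cd34, which marks adventitial fibroblasts as well as endothelium, fell by 6.52 (SE 0.54), alongside the endothelial genes. Tcf21, a transcription factor of lipofibroblasts, did not pass, with 63.4, 58.2 and 66.7 CPM at passage 8 and 51.1, 50.6 and 22.7 CPM at passage 2 (0.60, SE 0.40, edgeR adjusted p = 0.289). Of 31 transcription factors of the lung mesenchyme and the body axis 3 (9.68%) were higher and 5 (16.1%) lower, near the shares of all genes tested. With 1 library left out 1 to 5 were higher and 1 to 7 lower. The counts were 2 and 3 without passage 2 replicate 3, and 1 and 1 without passage 8 replicate 1. They were 5 and 7 without passage 2 replicate 2, in a fit where 3383 of all 18651 genes were higher and 3177 lower. Prrx1, a mesenchymal homeobox factor, had 400.0, 417 and 402 CPM at passage 8 and 209, 243 and 138 CPM at passage 2 (1.05, SE 0.21, edgeR adjusted p = 0.00262). Meox1 fell by 2.90 (SE 0.63), and Hoxa5 and Hoxb5, which place the lung along the body axis, had log2 fold changes of -0.59 (SE 0.15) and -0.45 (SE 0.11). The falls of Hoxa5 and Hoxb5 were lost in 4 and 6 of the alternative fits, among them both TPM scales. Lung fibroblast factors Tbx4 and Tbx5 did not pass, with log2 fold changes of 0.01 (SE 0.36) and -0.28 (SE 0.30).

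Imprinted genes and insulin-like growth factor genes moved singly. Of 23 imprinted genes 5 were higher and 5 lower (5 and 4 without passage 2 replicate 3), with 3 higher without passage 8 replicate 2 or 3 or passage 2 replicate 1, 2 lower without passage 8 replicate 2, and 1 lower without passage 8 replicate 1 or 3 or passage 2 replicate 1. Of 15 genes of the insulin-like growth factor axis 4 were higher and 3 lower. Meg3, a maternally expressed long noncoding RNA, had 476, 362 and 357 CPM at passage 8 and 121, 90.8 and 98.5 CPM at passage 2 (log2 fold change 1.95, SE 0.21, edgeR adjusted p = 2.54e-05), while Mest, a paternally expressed gene of embryonic mesenchyme, fell to 0.459, 0.543 and 0.357 CPM at passage 8, against 8.25, 26.1 and 4.26 CPM at passage 2 (-4.83, SE 0.66, edgeR adjusted p = 1.77e-04). Some 23.1% of the exonic bases of Mest overlap another gene. Among 25 genes of cholesterol synthesis 2 were higher and 9 lower (5 lower without passage 2 replicate 3 or passage 8 replicate 1 or 3), and Sc5d, a sterol desaturase, rose by 1.11 (SE 0.15). Of 27 antioxidant genes 2 were higher and 8 lower, but 2 and 2 without passage 2 replicate 3. There were 2 lower also without passage 8 replicate 1 or 3, and 5 lower without passage 2 replicate 1. Without passage 8 replicate 2, 1 was higher. Without passage 2 replicate 2, 6 were higher, in a fit where 3383 of all 18651 genes were higher. Hmox1, the heme oxygenase induced by NRF2, had 958, 894 and 878 CPM at passage 8 and 253, 256 and 197 CPM at passage 2 (1.95, SE 0.28, edgeR adjusted p = 2.51e-04). Among complement genes 1 of 16 was higher and 7 lower (1 and 5 without passage 2 replicate 3, with 4 lower without passage 8 replicate 1 or 3 and 2 higher without passage 2 replicate 2). Clu, the chaperone clusterin, had 247, 306 and 228 CPM at passage 8 and 1296, 799 and 1539 CPM at passage 2 (-2.22, SE 0.35), and C3ar1, a receptor of macrophages, fell by 6.79 (SE 0.74). Adipogenic genes were lower in 6 of 13 and higher in none (4 lower and 1 higher without passage 2 replicate 3, and 3 lower without any 1 passage 8 library or passage 2 replicate 1), with Fabp4 at 36.5, 43.2 and 37.4 CPM at passage 8 and 163, 184 and 108 CPM at passage 2 (-1.96, SE 0.21, edgeR adjusted p = 2.32e-05). Macrophages express Fabp4 as well. Immediate early genes were higher in 8 of 19 and lower in 1 (6 and 0 without passage 2 replicate 3, and 5 and 0 without passage 8 replicate 1 or 3 or passage 2 replicate 1), led by Fosl1, an AP-1 subunit, with 106, 110.0 and 108 CPM at passage 8 and 15.0, 15.5 and 18.5 CPM at passage 2 (2.73, SE 0.14, edgeR adjusted p = 1.72e-07). For Fosl1 57.2% of the exonic bases overlap another gene. Of 39 lysosomal genes 5 (12.8%) were higher and 4 (10.3%) lower, near the 9.80% and 13.5% of all genes tested. Without passage 2 replicate 3 the counts were 6 and 1. They were 2 and 2 without passage 8 replicate 1 or 2, and 2 and 1 without passage 8 replicate 3. Without passage 2 replicate 2, 10 were higher, in the fit where 3383 of all 18651 genes were. Of 14 skeletal genes 2 were higher and 6 lower (2 and 2 without passage 2 replicate 3), with 1 lower without any 1 passage 8 library and 3 lower without passage 2 replicate 1. Among the mitochondrially encoded genes 1 of 13, mt-Atp8, passed (1.25, SE 0.37), a call lost in 5 of the alternative fits.

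Single genes that head the increases belong to other pathways. Alkal1, a ligand of the receptor kinases ALK and LTK, had the largest increase by the rule for named genes, with 115, 122 and 118 CPM at passage 8 and 5.40, 5.29 and 0.435 CPM at passage 2 (log2 fold change 4.96, SE 0.59, edgeR adjusted p = 5.52e-05). Cth, which makes cysteine from cystathionine, had 79.2, 85.6 and 84.1 CPM at passage 8 and 8.38, 13.4 and 3.29 CPM at passage 2 (3.30, SE 0.45). Slc7a3, a cationic amino acid transporter, rose by 3.29 (SE 0.91, edgeR adjusted p = 0.0198), and 5 of the alternative fits lost this call. Sema3a, a repulsive axon guidance cue, had 34.1, 31.5 and 37.3 CPM at passage 8 and 4.38, 4.27 and 2.42 CPM at passage 2 (3.21, SE 0.25, edgeR adjusted p = 2.80e-06). The passages did not overlap in these 4 genes, but the rule by which they were named required that.

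The passage effect was set against that in Atm-/- cells, where the gene for the kinase ATM, an early responder to broken DNA, is knocked out, by testing the difference of the 2 effects. In Atm-/- cells 864 of 18167 genes (4.76%) were higher at passage 8 than at passage 2 and 1498 (8.25%) lower, and 1333 genes were called in both genotypes, which is 31.5% of the Atm+/+ and 56.4% of the Atm-/- calls, 1292 of them in the same direction. The difference itself passed for 804 genes (4.43%). Of the 4227 genes called in Atm+/+ cells, 577 (13.7%) were among them. Macrophage genes were lower in both genotypes, 21 of 21 in each. Pf4 changed by -8.79 in Atm+/+ cells and -8.44 in Atm-/- cells, and Mmp9 changed by -8.46 in Atm+/+ cells and -9.23 in Atm-/- cells, and neither difference passed (edgeR adjusted p = 0.805 and 0.528). The contractile genes parted in their passage effects, from starting levels that also differed. Their summed CPM at passage 2 were 11453 to 13771 in Atm+/+ cells and 17716 to 21255 in Atm-/- cells, without overlap. At passage 8 they were 25964 to 27669.7 in Atm+/+ cells and 14328 to 20177 in Atm-/- cells. The part of the starting level in the differences was not tested. Of 19 contractile genes 15 were higher at passage 8 than at passage 2 in Atm+/+ cells. In Atm-/- cells none was higher and 3 were lower. For 12 the difference of the effects passed, each more positive in Atm+/+ cells. Among the named ones, the differences for Myh11, Lmod1, Acta2, Tagln, Cnn1 and Nexn passed in all 12 fits that left out 1 library of these 4 groups, and that for Myl9 in 7. For Acta2 the effects were 1.18 in Atm+/+ cells and -0.31 in Atm-/- cells, and for Lmod1 2.52 in Atm+/+ cells and -0.15 in Atm-/- cells. Among collagens the differences ran the same way, with 11 of 20 differences passing, all more positive in Atm+/+ cells, as in Col1a1 with 0.40 in Atm+/+ cells and -1.88 in Atm-/- cells. The corresponding shares of all genes were 1.97% for more positive and 2.46% for more negative effects in Atm+/+ cells. Among genes called by passage in Atm+/+ cells with a mean of at least 2 log2 CPM over those 6 libraries, the most positive differences were those of Wfdc21 (4.83), Cdh3 (4.21), Myh11 (4.02), Cdc42ep3 (3.88) and F3 (3.81), and the most negative ones those of Plac9b (-7.54), Cldn5 (-5.23), Clec3b (-4.52), Ccl8 (-4.35) and Tie1 (-3.88). Of the 12 fits that left out 1 library, Wfdc21 and Myh11 passed in all 12, F3 and Plac9b in 11, Clec3b in 8, Cdc42ep3 in 7, Ccl8 in 6, Cdh3 and Cldn5 in 4 and Tie1 in 3. Without Atm+/+ passage 2 replicate 3 the differences of Tie1, Cldn5 and Cdh3 did not pass (edgeR adjusted p = 0.0534, 0.0704 and 0.0607). The number of differences that passed ranged from 79 to 4600 when 1 library was left out and was 432 without Atm+/+ passage 2 replicate 3. In that last fit 13 contractile and 9 collagen genes passed. When a library was left out, the lowest counts came without Atm+/+ passage 8 replicate 3 (79) and the highest without Atm+/+ passage 2 replicate 2 (4600). Without Atm-/- passage 8 replicate 3, the library of fewest counts, 1079 differences passed. The log2 fold changes of the 2 genotypes had a Pearson correlation of 0.587 in the main fit. It was 0.720 in 13 libraries, without that library and Atm+/+ passage 2 replicate 3.

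**Figure D5:**
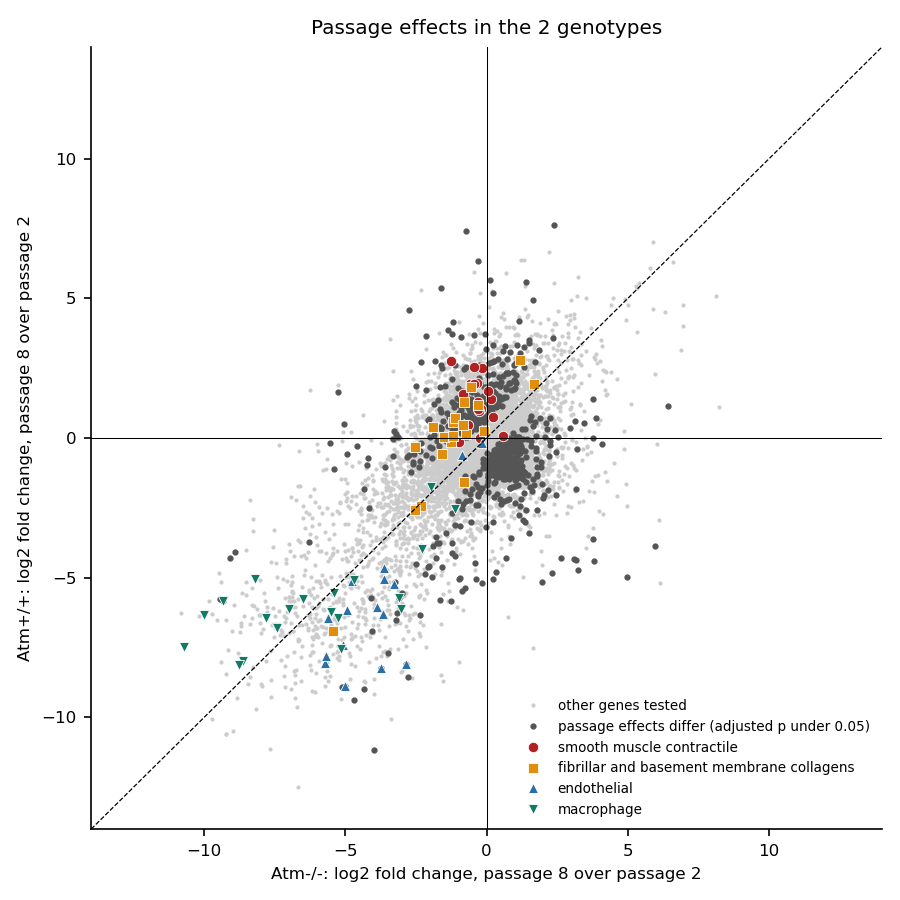
Log2 fold change of passage 8 over passage 2 in Atm+/+ cells (vertical) against Atm-/- cells (horizontal) for 18167 genes, with the dashed line for equal effects, dark points for the 804 genes whose effects differed at an adjusted p under 0.05, and 4 gene lists in colour. Macrophage genes lie at the lower left in both genotypes, and smooth muscle genes lie above 0 in Atm+/+ cells and near or below 0 in Atm-/- cells, as in Myh11 with 2.76 in Atm+/+ cells and -1.26 in Atm-/- cells.

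The end point of passage was also set directly against irradiated Atm+/+ cells of passage 2, a comparison that shares the passage 8 libraries with the one above. Here 471 of 18167 genes (2.59%) were higher at passage 8 and 781 (4.30%) lower, 1252 in all (6.89%). No contractile gene passed in either direction, but 3 of 19 were lower at passage 8 without Atm+/+ passage 2 replicate 3, and the summed contractile CPM were 25964 to 27669.7 at passage 8 and 33789 to 38943 after irradiation, without overlap. Acta2 averaged 7807 ± 129 CPM at passage 8 and 11156 ± 733 CPM after irradiation (SD, n = 3; log2 fold change of passage 8 over irradiated -0.52, SE 0.15, edgeR adjusted p = 0.0643). Thbs1 averaged 8691 ± 1169.8 CPM at passage 8 and 5587 ± 729 CPM after irradiation, means that are given here without a test. Mitotic genes differed, with 23 of 40 higher at passage 8 and none lower, as in Mki67 with 20.1, 26.5 and 27.0 CPM at passage 8 and a mean of 5.84 CPM after irradiation (2.07, edgeR adjusted p = 1.80e-05). Interferon-stimulated genes were lower at passage 8 in 19 of 51 and higher in none, as in Isg15 with a mean of 91.8 CPM at passage 8 and 214 CPM after irradiation. Macrophage genes were lower in 19 of 21 and endothelial genes in 14 of 16, with summed macrophage CPM of 70.3 to 109.5 at passage 8 and 1524 to 2738 after irradiation, and the part of this RNA in the other differences was not tested. Among genes called by passage with a mean of at least 2 log2 CPM over passage 8 and passage 2, the 5 largest differences each way were C1qb (-6.92), C1qc (-6.80), Ctss (-6.78), Tie1 (-6.75) and Pf4 (-6.75) below, and Clca3a1 (3.75), Clec3b (3.24), Itih4 (2.67), Alkal1 (2.53) and Ptx3 (2.39) above. Below that level C3ar1 differed by -6.90 and Il1b, with no read at passage 8, was also lower at passage 8. Alkal1 averaged 118 ± 3.03 CPM at passage 8 and 20.5 ± 1.09 CPM after irradiation (SD, n = 3).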

How the data were processed

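RNA-seq of 15 libraries of mouse lung fibroblasts was analysed, 3 in each of 5 groups taken from the sample labels. The authors deposited whole-number counts of reads per gene and a second table of TPM, which allow for gene length, on mm10. SAMtools 1.3.1 and featureCounts are named in the submitters' processing notes. No aligner or strand setting is named in the labels, so overlapping genes and antisense partners cannot be told apart. From the counts, genes were filtered by group with filterByExpr, normalised by TMM and fitted with the robust quasi-likelihood test of edgeR 4.0.16 (R 4.3.3), all 15 libraries in 1 fit with a mean per group, and p-values were adjusted over 18167 genes by Benjamini and Hochberg. TPM were analysed as log2(TPM + 1) and log2(TPM + 0.1) with limma 3.58.1, on genes of at least 0.5 TPM in 3 libraries. DESeq2 1.42.0, its size factors, no filter, a strict filter, the compared groups alone, a replicate block and fits without each library were the alternatives. Promoters are from RefSeq (GRCm38.p6). The test was tried on simulated counts.

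The gene lists and members were chosen with earlier results of these data known. Named genes were the 15 largest changes each way that passed with and without passage 2 replicate 3, had a mean of at least 2 log2 CPM and did not overlap, up to 4 genes of lowest p per list, cell type markers, and the 5 largest differences each way, to which the same level minimum was applied although the written rule does not state it. Aldoa, Ccl2, Ccn1, Cdkn2a, Cdkn2b, Clu, Cxcl12, Eln, Eng, Fbln5, Flt1, Il1b, Il6, Ldb3, Lmnb1, Myl9, Tbx4, Tbx5, Tcf21, Tgfb1 and Vegfa fall outside that rule and were chosen after their values were seen. Libraries held 13645592 to 39210772 counts. Limits from counts of 0 (3 reads over the group) cover counting error only. Some genes of the lists are counted in them but are not reported here by name.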

Additional observations from a re-analysis of the deposited data

Results flagged for a closer look

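For the genes below the passage effect passed in Atm+/+ cells and also differed between the genotypes in edgeR, as the log2 fold change in Atm+/+ cells minus that in Atm-/- cells. Some contractile and adhesion genes were more positive in Atm+/+ cells, with differences of 4.02 for Myh11, 2.67 for Lmod1, 2.31 for Cnn1, 1.65 for Nexn, 1.60 for Tagln, 1.49 for Acta2, 1.22 for Myl9, 2.54 for Itga11 and 1.57 for Itga5. More positive effects in Atm+/+ cells were also found for some secreted and matrix genes, with differences of 3.07 for Thbs1, 2.88 for Mmp10, 2.81 for Lum, 1.78 for Col1a2, 1.60 for Col4a5, 1.15 for Ltbp2, 2.17 for Cxcl12, 3.11 for Ereg, 3.30 for Alkal1 and 3.81 for F3. Among YAP and TAZ targets and early response genes they were 1.99 for Ankrd1, 1.87 for Ccn2, 0.88 for Crim1, 1.02 for Fosl1, 1.90 for Ptgs2 and 1.12 for Plk2. Among genes of hypoxia, glycolysis, lipid and amino acid metabolism they were 2.09 for Car9, 2.30 for Vegfa, 1.65 for Slc2a1, 1.13 for P4ha2, 0.93 for Hk2, 0.95 for Sc5d, 1.42 for Vldlr, 2.66 for Cth, 1.80 for Slc7a5, 1.23 for Psat1 and 0.89 for Asns. Other genes with a more positive effect in Atm+/+ cells were 4.83 for Wfdc21, 4.21 for Cdh3, 3.88 for Cdc42ep3, 3.48 for Marco, 3.19 for Ston1, 1.68 for Prrx1, 1.65 for Igfbp5, 1.26 for Isg15 and 1.25 for Gvin1. More negative effects in Atm+/+ cells were found for -7.54 for Plac9b, -5.23 for Cldn5, -4.52 for Clec3b, -4.35 for Ccl8, -3.88 for Tie1, -3.33 for Cd34, -2.93 for Cspg4, -2.87 for Stab1, -2.38 for Cdkn2a, -1.95 for Pgf, -1.23 for Ptp4a3, -1.19 for Cdkn2b and -0.96 for Lig1. Opposite signs of the 2 effects were seen, for example, in Cdc42ep3 (1.73 in Atm+/+ cells and -2.15 in Atm-/- cells) and Plac9b (-4.36 in Atm+/+ cells and 3.18 in Atm-/- cells). The passage call in Atm+/+ cells was lost in 7 of 15 alternative fits for Cdc42ep3 and in 5 of 15 for Cdh3 and Clec3b. All 3 genes lost it without Atm+/+ passage 2 replicate 3. Cdkn2a rose by 1.40 in Atm+/+ cells and by 3.78 in Atm-/- cells, and its difference was past the threshold in 3 of the 12 fits that left out 1 library. Of these 58 differences 19 passed in all 12 fits that left out 1 library and 18 passed in fewer than 6, and 11 did not pass without Atm+/+ passage 2 replicate 3. The differences for Marco, Cldn5, Tie1 and Stab1 concern transcripts of macrophages and endothelium, whose part in the other differences was not tested.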

How the results depend on the processing

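Of the 24 recalculations of the number of genes changed by passage in Atm+/+ cells (4227), 17 stayed within 1.5 times. The count was 2665 with the 2 compared groups alone, 7418 in 13 libraries (without Atm+/+ passage 2 replicate 3 and Atm-/- passage 8 replicate 3), and 2186 to 7500 with 1 library left out. The lowest count came without passage 8 replicate 3 and the highest without Atm-/- passage 8 replicate 3, while leaving out passage 2 replicate 2 gave 6560. The Atm-/- passage count (2362) was 3589 in DESeq2, 5026 in 13 libraries and 1476 to 3544 with 1 library left out. The count of differing effects (804) was 3473 in DESeq2, 518 with no filter, 1298 with the strict filter, 2556 in 13 libraries and 79 to 4600 with 1 library left out. The count against irradiated cells (1252) was 1918 in DESeq2, 4710 in 13 libraries and 722 to 1771 with 1 library left out. The causes were not tested. No called gene changed sign. Of the genes that did not pass, some did, given here as log2 fold changes. In 13 libraries Atm was 0.75, Il6 -0.16, Pdgfrb -0.08 and Tbx4 -0.32. On both TPM scales Ccl2 and Pdgfra were 0.12 and Eng 0.03. Tbx4 was -0.01 in DESeq2 and with its size factors, and Atm 0.09 with the replicate block. With 1 library left out, Atm ranged from -0.29 to 0.76, Ccl2 from -0.35 to 0.16, Col3a1 from -0.55 to 0.02, Il6 from -0.15 to 0.97, Pdgfra from -0.16 to 0.07, Pdgfrb from -0.07 to 0.17 and Tbx4 from -0.31 to 0.58. The labels do not say whether equal replicate numbers mark the same strain, and the main fit treats the libraries as unpaired. Deviations from the group means correlated at -0.00, -0.18 and -0.20 for equal numbers and at -0.12 to 0.30 for unequal ones. Deviations of 3 libraries from their mean sum to 0, so these values cannot decide whether the libraries pair. With the replicate block 2997 genes changed by passage in Atm+/+ cells and 144 effects differed. At low depth, genes with few reads at passage 8 carry wide errors, and the TPM scales shift the median of all genes by 0.19 and 0.27.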

Other observations

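Genes of the amino acid response and of serine synthesis, a list put together after the values were seen, were higher at passage 8 in 19 of 25 and lower in none. Their median log2 fold change was 1.11, and the counts were the same without passage 2 replicate 3. Of all genes tested 9.80% were higher and 13.5% lower. Since the members of this list and of the lists below were picked with their values in view, their counts test nothing. Psat1, an aminotransferase of serine synthesis, had 266, 300.3 and 294 CPM at passage 8 and 52.8, 78.8 and 48.5 CPM at passage 2 (log2 fold change 2.26, SE 0.17, edgeR adjusted p = 2.27e-06). Slc7a5, a transporter of large neutral amino acids, rose by 1.95 (SE 0.22), Asns, asparagine synthetase, by 1.48 (SE 0.14), and Vldlr, a lipoprotein receptor, by 2.36 (SE 0.18). In each of these 4 genes the passages did not overlap.

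Focal adhesion genes, also listed after the values were seen, were higher in 13 of 25 and lower in 2, and 14 and 2 without passage 2 replicate 3. The collagen-binding integrin gene Itga11 had 125, 91.5 and 106 CPM at passage 8 and 16.4, 17.6 and 14.5 CPM at passage 2 (log2 fold change 2.73, SE 0.30, edgeR adjusted p = 3.00e-05), and the fibronectin-binding Itga5 rose by 1.21 (SE 0.14). Itgb3, a subunit of the vitronectin receptor, went the other way, with 6.74, 5.84 and 6.84 CPM at passage 8 and 64.1, 66.3 and 86.5 CPM at passage 2 (-3.48, SE 0.39, edgeR adjusted p = 3.49e-05). Of 9 genes of class 3 semaphorins and their receptors, again listed after the values were seen, 5 were higher and 2 lower. Their summed CPM overlapped, at 608 to 661 at passage 8 and 505 to 771 at passage 2. Sema3d had 45.8, 37.6 and 53.5 CPM at passage 8 and 10.8, 7.40 and 2.03 CPM at passage 2 (2.74, SE 0.42), while the receptor gene Nrp1 had 107, 132 and 101 CPM at passage 8 and 307, 188 and 452 CPM at passage 2 (-1.47, SE 0.32).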
